A study of Mus musculus with 12 samples.

Results

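The RNA levels of 8 genes whose proteins have been reported to act on the RNA-editing enzymes ADAR1 and ADAR2 were followed in mouse neurons in which the enzymes themselves, or the RNA-binding protein Zfr, had been lowered. The 8 genes (Aimp2, Wwp2, Srsf9, Dhx15, Rps14, Fmr1, Fxr1 and Hnrnpa2b1) were chosen by name, from published work on ADAR regulation, by a rule that uses no measured value. The choice was made with earlier results of these data known. These genes are 8 of 23955 in the deposited tables. All 8 were among the 14785 genes with enough counts to be tested. RNA sequencing covered cultures of cortical neurons taken from C57BL/6J embryos at E16.5 and dissociated with papain. Lentivirus was added on the day that followed seeding, and the harvest was 7 days after the dissection. There were 5 groups of 2 samples, and every group, controls included, carried virus and a short hairpin RNA from the pGreenPuro vector. A control hairpin was carried by 2 groups, named shControl1 and shControl2 here. The other groups carried a hairpin against Adar (shAdar1), Adarb1 (shAdar2) or Zfr (shZfr). The design sets shAdar1 and shAdar2 against shControl1 and shZfr against shControl2. The labels name 1 hairpin per target. The first 2 of these comparisons share their control samples. The design text calls the samples of shControl1, shAdar1 and shAdar2 biological replicates but does not say whether they came from separate litters, so p-values measure the spread between these samples.

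ADAR enzymes bind double-stranded RNA and change adenosine to inosine, which is read as guanosine. Adar encodes ADAR1 and Adarb1 encodes ADAR2, which edits receptor transcripts in neurons. How much editing takes place is known to depend on more than the amount of enzyme RNA. Other proteins mark the enzymes for degradation, bind them, or bind the same RNA duplexes. Aimp2 and the ubiquitin ligase Wwp2 belong to the first kind, since both have been reported to lower ADAR protein. Srsf9, Dhx15 and Rps14 were reported as repressors of editing. Fmr1 and Fxr1 encode related RNA-binding proteins that have been found with ADARs, and Hnrnpa2b1 encodes a nuclear ribonucleoprotein that binds pre-mRNA. All values below are RNA levels, and protein was not measured.

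Levels are given as CPM (counts scaled by TMM to a common library size). Total expected counts per sample ran from 15818943 to 82653829, the highest being shAdar2 replicate 1, whose 3 technical libraries from the same RNA were summed. The members had at least 122 counts in every library. The 2 shZfr samples were much closer to each other than those of any other group: over genes, the chi-square of their counts per degree of freedom was 2.28 (median per gene 0.581), against 26.2 to 57.8 (median per gene 2.59 to 12.0) in the other groups. Between the 3 technical libraries of shAdar2 replicate 1, from the same RNA, it was 21.2 to 57.3 (median per gene 6.54 to 10.6). The shZfr pair was thus closer than these libraries of 1 RNA. The shZfr samples were kept as 2. Only the comparisons of shZfr with shControl2 and with shAdar2 were also run with the shZfr samples summed to 1. All 10 samples share 1 estimate of the spread, so the other comparisons draw on this pair too. In fits of only the compared groups, genes passing went from 2400 to 1693 in shAdar1 and from 6856 to 4047 in shAdar2 against shControl1, and from 6367 to 7537 between the controls. The part of the shZfr pair in these changes was not tested. The control hairpins also differed from each other at 43.1% of all genes tested, so each knockdown was read against both.

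Each enzyme was low where its hairpin was used. Adar stood at 55.0 and 51.5 CPM in shAdar1 against 153 and 192 CPM in shControl1, a log2 fold change of −1.69 ± 0.13 (SE, edgeR adjusted p = 0.000341). Adarb1 stood at 48.4 and 52.0 CPM in shAdar2 against 122 and 118 CPM in shControl1 (−1.26 ± 0.12, adjusted p = 7.12e-05). In shZfr Adarb1 was also low, at 49.2 and 45.5 CPM against 99.4 and 92.0 CPM in shControl2 (−1.02 ± 0.12, adjusted p = 0.000381). The shAdar2 and shZfr samples overlapped for Adarb1, with a difference of −0.08 ± 0.12 (adjusted p = 0.564). Adar was at 139.7 and 133 CPM in shZfr, where shControl2 had 139 and 118 CPM, and at 207 and 188 CPM in shAdar2. Zfr stood at 173 and 173 CPM in shZfr against 422 and 496 CPM in shControl2 (−1.41 ± 0.11, adjusted p = 6.36e-05), and 289.9 and 268 CPM in shControl1 (−0.69 ± 0.11, adjusted p = 0.000941). Between the controls, Zfr was higher in shControl2 (0.72 ± 0.11) and Adar (−0.42 ± 0.13) and Adarb1 (−0.33 ± 0.12) were lower. Zfr was also low in shAdar2, at 179 and 197 CPM, where the difference from shZfr did not pass (−0.12 ± 0.11, adjusted p = 0.360). The mean editing level over the 499 sites that every sample covered with 20 or more reads was 2.92% and 3.06% in shControl1, 2.20% and 2.14% in shControl2, 1.85% and 1.47% in shAdar1, 1.88% and 1.93% in shAdar2, and 1.32% and 1.295% in shZfr. Over the 97 sites with 50 or more reads, shAdar1 was at 2.97% and 2.57%, not below shControl2 at 2.74% and 2.53%. These means are a description without a test.

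Against shControl1, 2 of the 8 members were called in shAdar1, Aimp2 higher and Fxr1 lower, where 16.2% of all genes tested were called (9.33% higher and 6.9% lower). In shAdar2, 4 of 8 were called, 1 higher and 3 lower, where 46.4% of all genes were called (23.2% in each direction). In shZfr against shControl2, 6 of 8 were called, 4 higher and 2 lower, against 30.7% of all genes (16.7% higher and 14.1% lower). Between the control hairpins 4 of 8 were called, 2 higher and 2 lower in shControl2, where 43.1% of all genes were called (19.9% higher and 23.2% lower). The members' counts in shAdar1, in shAdar2 and between the controls lie near those shares. The median absolute log2 fold change of the 8 was 0.23 in shAdar1, 0.48 in shAdar2 and 0.58 in shZfr, beside 0.30, 0.52 and 0.41 over all genes tested. Against the other control, 4 of 8 were called in shAdar1 (33.2% of all genes), 8 of 8 in shAdar2 (59.5%) and 6 of 8 in shZfr (46.2%).

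**Figure D1:**
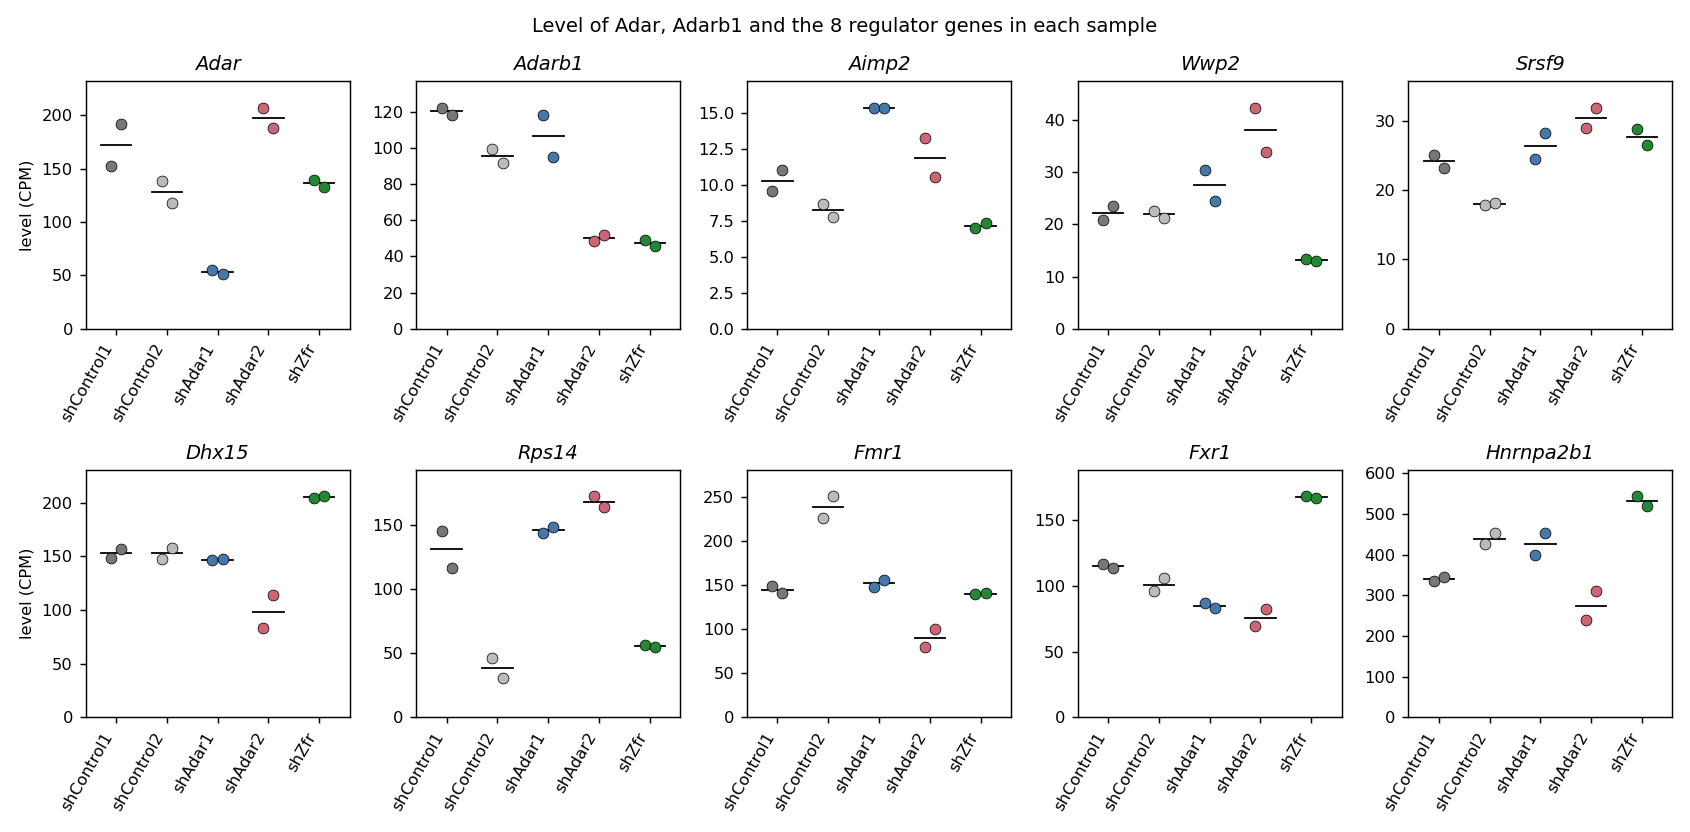
Level in CPM (vertical axes, from 0) of Adar, Adarb1 and the 8 members in each of the 10 samples, by group; points are samples and lines are group means of 2 samples. Adarb1 is low in both shAdar2 and shZfr, while Wwp2 is highest in shAdar2 and lowest in shZfr, and Dhx15, Fxr1 and Hnrnpa2b1 are lowest in shAdar2 and highest in shZfr.

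Adarb1 was low in both shAdar2 and shZfr, while 3 of the 8 members passed in opposite directions in them against either control. Wwp2 was higher in shAdar2 and lower in shZfr, and Dhx15 and Fxr1 were lower in shAdar2 and higher in shZfr. The share of all genes tested that passed in this way was not counted, so the 3 cannot be set against it. Aimp2 and Hnrnpa2b1 also had opposite signs against either control, but passed only against the other control than the design's. Related gene lists, described below, were also summed. SR genes were at 1052 to 1227 CPM in shAdar2 and 2625 to 2639 CPM in shZfr. The hnRNP, DEAH-box, NEDD4 family, FMRP partner and other ADAR partner lists were likewise lowest in shAdar2 and highest in shZfr. This order was thus not particular to Dhx15 and Fxr1. Small-subunit genes were higher in shAdar2 (4769 to 5742 CPM) than in shZfr (3216 to 3299 CPM). The synthetase list was highest in shControl1. In the direct comparison of shZfr with shAdar2, which involves neither control, 7 of 8 members were called, 4 higher and 3 lower in shZfr, where 60.5% of all genes were called. The median absolute log2 difference of the 8 was 1.01, beside 0.73 over all genes. Wwp2 differed by −1.54 ± 0.16 (adjusted p = 4.24e-05), Fxr1 by 1.14 ± 0.11 (adjusted p = 2.01e-05) and Dhx15 by 1.06 ± 0.14 (adjusted p = 0.000134). Rps14 (−1.59 ± 0.18), Hnrnpa2b1 (0.95 ± 0.13), Aimp2 (−0.74 ± 0.18) and Fmr1 (0.64 ± 0.12) were called too, and Srsf9 was not (−0.14 ± 0.13, adjusted p = 0.375). With the shZfr samples summed to 1, the count was again 7, where 44.4% of all genes were called. Leaving out any 1 of the 4 samples gave 6 or 7, where 42.7% to 63.7% of all genes were called, with 6 where Aimp2 missed the threshold without shZfr replicate 1 (−0.88 to −0.54 over the samples left out, highest adjusted p = 0.0527).

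**Figure D2:**
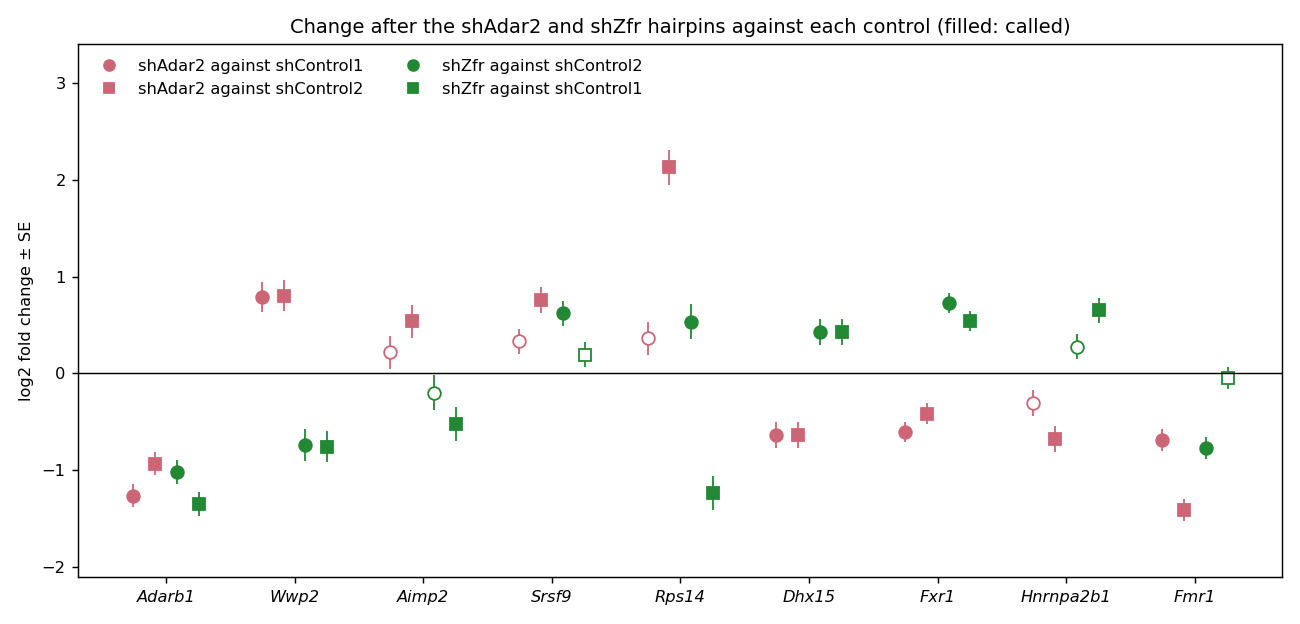
Log2 fold change with its SE (vertical axis) of Adarb1 and the 8 members in shAdar2 (red) and shZfr (green), against the design's control (circles) and the other control (squares); filled symbols passed an adjusted p under 0.05. The shAdar2 and shZfr symbols of Wwp2, Dhx15 and Fxr1 lie on opposite sides of 0 with either control, while those of Adarb1 all lie between −1.35 and −0.93.

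The members Wwp2, Dhx15, Fxr1 and Fmr1 were called both in shAdar2 against shControl1 and in shZfr against shControl2. These comparisons share no sample but share 1 estimate of the spread. The share of all genes called in both was not counted. In shZfr against shControl1 Fmr1 was not called (−0.05 ± 0.11). Srsf9 and Rps14 were called in the second of these alone. The promoters of the first 4 are shown because these members passed in both. Of the 8 members, 7 had a window in the RefSeq table. The sequences are the 250 bases before the annotated start on GRCm38.p6, 5′ to 3′ on the gene's strand, at chr8:107436120-107436369 (+) for Wwp2, chr5:52190547-52190796 (−) for Dhx15, chr3:34019829-34020078 (+) for Fxr1 and chrX:68678291-68678540 (+) for Fmr1, the more upstream of its starts. Capitals mark exact matches on either strand to a GC box (GGGCGG), an E-box (CACGTG), the core of the NRF1 motif (CGCATGCG) or a CCAAT box (CCAAT).
Wwp2: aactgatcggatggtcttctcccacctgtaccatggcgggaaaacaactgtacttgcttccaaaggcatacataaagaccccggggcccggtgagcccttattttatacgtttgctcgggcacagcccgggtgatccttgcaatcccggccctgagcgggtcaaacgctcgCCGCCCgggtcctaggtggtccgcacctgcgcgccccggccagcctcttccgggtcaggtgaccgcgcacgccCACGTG
Dhx15: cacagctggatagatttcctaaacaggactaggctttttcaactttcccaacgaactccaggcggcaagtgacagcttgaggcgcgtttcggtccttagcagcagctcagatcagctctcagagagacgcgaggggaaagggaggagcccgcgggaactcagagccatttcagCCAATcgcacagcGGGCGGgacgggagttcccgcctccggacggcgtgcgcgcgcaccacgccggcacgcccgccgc
Fxr1: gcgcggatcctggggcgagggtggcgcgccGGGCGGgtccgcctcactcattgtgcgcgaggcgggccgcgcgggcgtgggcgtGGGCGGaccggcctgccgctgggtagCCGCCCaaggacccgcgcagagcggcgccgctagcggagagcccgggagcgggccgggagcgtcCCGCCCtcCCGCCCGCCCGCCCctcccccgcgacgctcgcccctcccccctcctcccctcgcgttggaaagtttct
Fmr1: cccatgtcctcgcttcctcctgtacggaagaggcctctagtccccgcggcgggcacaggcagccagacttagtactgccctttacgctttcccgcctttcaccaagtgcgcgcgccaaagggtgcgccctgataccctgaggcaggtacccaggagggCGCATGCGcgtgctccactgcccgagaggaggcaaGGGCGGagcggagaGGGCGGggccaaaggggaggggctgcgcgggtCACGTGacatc

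All 4 windows were rich in CpG, with 22 CpG dinucleotides in Wwp2, 25 in Dhx15, 40 in Fxr1 and 21 in Fmr1, where the median over 32851 windows was 6. The GC content was 62.8% in Wwp2 and Dhx15, 80% in Fxr1 and 67.2% in Fmr1, against a median of 52.4%. Each held a GC box, which 32.7% of all windows hold. Fxr1 had 7 matches, Fmr1 had 2, and Wwp2 and Dhx15 had 1 each. An E-box was found in Wwp2 and Fmr1 (6.02% of all windows), the NRF1 core in Fmr1 (1.55%) and a CCAAT box in Dhx15 (33.8%). The matches are letters in these windows and say nothing about binding in these cells.

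Wwp2, an E3 ligase of the NEDD4 family that attaches ubiquitin to its substrates, was the member with the largest difference between shAdar2 and shZfr apart from Rps14. It stood at 42.4 and 33.9 CPM in shAdar2 and at 13.3 and 12.9 CPM in shZfr, with 20.9 and 23.4 CPM in shControl1 and 22.6 and 21.3 CPM in shControl2. The controls overlapped, every shAdar2 sample lay above all other samples, and every shZfr sample lay below them. In shAdar2 Wwp2 rose to 172.5% of shControl1 (log2 fold change 0.79 ± 0.16, adjusted p = 0.00310) and to 174.4% of shControl2 (0.80 ± 0.16, adjusted p = 0.00182). In shZfr it fell to 59.8% of shControl2 (−0.74 ± 0.16, adjusted p = 0.00804) and to 59.2% of shControl1 (−0.76 ± 0.16, adjusted p = 0.00423). The fall in shZfr missed the threshold without shControl2 replicate 1 (adjusted p = 0.0521), without shZfr replicate 1 (0.0600) or 2 (0.0734), and with the shZfr samples summed (0.0638), at log2 fold changes of −0.71 to −0.77. In shAdar1 it was at 30.5 and 24.5 CPM and did not pass (0.31 ± 0.16, adjusted p = 0.216).

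Its relative Wwp1 moved the other way in both. Wwp1 stood at 69.2 and 69.4 CPM in shAdar2 and at 248 and 251 CPM in shZfr, with 137 to 159 CPM in the 4 control samples. It fell in shAdar2 (−1.07 ± 0.10, adjusted p = 6.48e-05) and in shAdar1 (−0.77 ± 0.10, adjusted p = 0.00168) and rose in shZfr (0.74 ± 0.10, adjusted p = 0.000674). The same directions passed against the other control, at −1.11 ± 0.10, −0.81 ± 0.10 and 0.78 ± 0.10. Of 8 other NEDD4 family ligases, 4 fell in shAdar2 (median −0.51), among them Nedd4l (−0.99 ± 0.09), and none rose. In shZfr 4 rose and 1 fell (median 0.14), with Nedd4l at 1.32 ± 0.09, and in shAdar1 1 rose, Nedd4 (0.61 ± 0.10), and 1 fell, Wwp1. Nedd4 was itself higher in shControl2 than in shControl1 (0.72 ± 0.10), and against shControl2 the list gave 1 rise, Nedd4l (0.60 ± 0.09), and 3 falls in shAdar1.

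**Figure D3:**
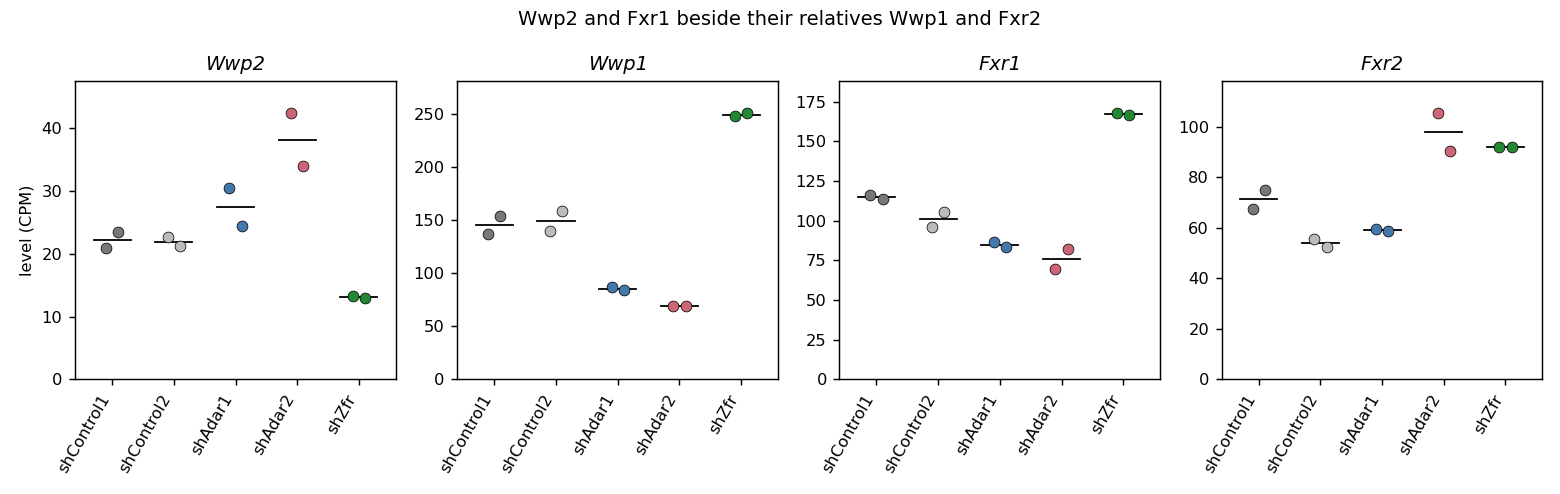
Level in CPM (vertical axes, from 0) of Wwp2, Wwp1, Fxr1 and Fxr2 in each of the 10 samples by group; points are samples and lines are group means. Wwp1 is lowest in shAdar2, at 69.2 and 69.4 CPM, and highest in shZfr, the reverse of Wwp2, whereas Fxr2 is higher in both shAdar2 and shZfr than in either control.

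Aimp2, a scaffold of the multi-tRNA synthetase complex, was the least counted of the members. It stood at 15.4 and 15.3 CPM in shAdar1, 13.3 and 10.5 CPM in shAdar2, 9.57 and 11.0 CPM in shControl1, 8.68 and 7.81 CPM in shControl2, and 7.02 and 7.34 CPM in shZfr. The shAdar1 samples lay above all others and the shZfr samples below all others. Aimp2 rose in shAdar1 to 149.2% of shControl1 (0.58 ± 0.17), and its adjusted p of 0.0478 was just inside the threshold. That call was lost when any 1 of the 4 samples was left out (adjusted p from 0.114 to 0.195), and with DESeq2 (0.0582), DESeq2 size factors (0.0547), all genes kept whatever their counts (0.0621) or only the compared groups (0.0795). It was also lost in edgeR with the replicate number as a block (adjusted p = 0.0598) and with those numbers crossed. Against shControl2 the shAdar1 samples gave 0.90 ± 0.17 (adjusted p = 0.00426). In shZfr Aimp2 was at −0.20 ± 0.18 against shControl2 (adjusted p = 0.431) and fell against shControl1 (−0.52 ± 0.18, adjusted p = 0.0354).

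Of 10 other genes of the tRNA synthetase complex, 1 was called in shAdar1 against shControl1, Iars (−0.67 ± 0.11), and it fell (median −0.23). Against shControl2 3 rose and none fell (median 0.16), among them Aimp1 (0.54 ± 0.13) and Qars (0.52 ± 0.13). In shAdar2 4 fell and none rose (median −0.33), among them the scaffold gene Eef1e1 (−0.87 ± 0.11, adjusted p = 0.000299), while against shControl2 3 rose and 2 fell (median 0.05). In shZfr against shControl2 3 rose and 1 fell (median 0.21), with the scaffold gene Aimp1 at 0.83 ± 0.13, but against shControl1 none rose and 2 fell (median −0.20), with Aimp1 at 0.02 ± 0.13.

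Dhx15 is a DEAH-box helicase that takes apart spent spliceosomes. It stood at 83.0 and 114 CPM in shAdar2 and at 205 and 206 CPM in shZfr, with 146 to 158 CPM in all samples of shControl1, shControl2 and shAdar1. The controls overlapped, the shAdar1 samples lay just below them, and the shAdar2 and shZfr samples lay below and above all of these. In shAdar2 Dhx15 fell to 64.2% of either control, by −0.64 ± 0.14 against shControl1 (adjusted p = 0.00414) and −0.64 ± 0.14 against shControl2 (adjusted p = 0.00274). In shZfr it rose to 134.2% of shControl2 (0.42 ± 0.13, adjusted p = 0.0388) and 134.1% of shControl1 (0.42 ± 0.13, adjusted p = 0.0274). The rise in shZfr against shControl2 missed the threshold without any 1 of the 4 samples (adjusted p from 0.103 to 0.178) and with the shZfr samples summed (0.138), at log2 fold changes of 0.37 to 0.47. The fall in shAdar2 passed in every alternative run. The 3 technical libraries of shAdar2 replicate 1 read 87.2, 80.7 and 86.8 CPM.

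Among 15 other DEAH-box helicases, 6 rose and 4 fell in shAdar2 (median 0.28), where Dhx36, which unwinds G-quadruplexes, was at −0.98 ± 0.11 and Dhx57 at −0.69 ± 0.10. In shZfr 3 rose and none fell against shControl2 (median 0.20), among them the splicing helicase Dhx38 (0.60 ± 0.14) and Dhx30 (0.44 ± 0.12). Against shControl1 3 rose and 1 fell (median 0.21). Dhx30 was itself lower in shControl2 than in shControl1 (−0.43 ± 0.12), with means of 88.3 CPM in shZfr and 87.6 CPM in shControl1. The median of the 15 in shAdar1 was 0.04.

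Srsf9, an SR protein that acts in splice site choice, was lowest in shControl2. It stood at 17.8 and 18.2 CPM there, against 25.1 and 23.2 CPM in shControl1, 24.5 and 28.2 CPM in shAdar1, 29.0 and 31.9 CPM in shAdar2, and 28.8 and 26.4 CPM in shZfr. The shControl2 samples lay below all others, and the groups of shControl1 and shAdar1 overlapped, as did shAdar1 and shZfr. Srsf9 rose in shZfr against shControl2 to 153.6% (0.62 ± 0.13, adjusted p = 0.00678), but was at 0.19 ± 0.13 against shControl1 (adjusted p = 0.247). Without shZfr replicate 1 the first value was 0.55 (adjusted p = 0.0735). In shAdar2 it was at 0.33 ± 0.13 against shControl1 (adjusted p = 0.0583) and rose against shControl2 (0.76 ± 0.13, adjusted p = 0.000840). In shAdar1 it was at 0.13 ± 0.13 against shControl1 and rose against shControl2 (0.55 ± 0.13, adjusted p = 0.0105). The difference between the controls themselves, −0.43 ± 0.13 in shControl2 (adjusted p = 0.0253), missed the threshold without any 1 of the 4 control samples (0.0511 to 0.114).

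The other SR protein genes did not share the low level of Srsf9 in shControl2. There 9 of 12 were higher than in shControl1 and none lower (median 0.45), with Srsf10 at 1.11 ± 0.16. In shAdar2 5 fell and none rose (median −0.42), among them Tra2b (−1.03 ± 0.11), a regulator of exon inclusion. In shZfr 6 rose and none fell (median 0.30), with Srsf11 at 0.68 ± 0.11 and Srsf6 at 0.60 ± 0.11, and in shAdar1 4 rose and 1 fell against shControl1 (median 0.37), with Srsf2 at 0.65 ± 0.12, but 1 rose and 3 fell against shControl2 (median −0.11).

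Rps14, a protein of the small ribosomal subunit, had the widest range of the 8, 5.64-fold between its lowest and highest sample. It stood at 46.3 and 30.5 CPM in shControl2 and at 56.3 and 54.9 CPM in shZfr, and at 116 to 172 CPM in all samples of shControl1, shAdar1 and shAdar2. The samples thus fell into a low and a high set that did not overlap. In shControl2 it was at 29.4% of shControl1 (−1.77 ± 0.18, adjusted p = 0.000108), a difference that passed in every alternative run. The shZfr result turned with the baseline. Rps14 was higher in shZfr than in shControl2 (0.53 ± 0.18, adjusted p = 0.0465) and lower than in shControl1 (−1.23 ± 0.18, adjusted p = 0.000480). The first of these missed the threshold without shControl2 replicate 2 (0.26, adjusted p = 0.284), without shZfr replicate 1 (0.180) or 2 (0.161), with the shZfr samples summed (0.153) and with DESeq2 size factors (0.0501). In shAdar1 (0.16 ± 0.17) and shAdar2 (0.36 ± 0.17) Rps14 did not pass against shControl1, and against shControl2 it was higher in both (1.92 ± 0.18, adjusted p = 0.000232, and 2.13 ± 0.18, adjusted p = 1.80e-05). The technical libraries of shAdar2 replicate 1, made from the same RNA, read 209, 136 and 179 CPM, a wider spread than between the 2 shAdar2 samples.

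The same split ran through the other genes of the small subunit. Of 32 tested, 30 were lower in shControl2 than in shControl1 and none higher (median −1.28). In shZfr 22 were lower than in shControl1 (median −0.78) and 15 were higher than in shControl2 (median 0.47), with none called the other way in either. Rps25, for example, was at −1.53 ± 0.12 between the controls and at −1.23 ± 0.12 in shZfr against shControl1. In shAdar1 1 rose, Rps9 (0.42 ± 0.11), and in shAdar2 8 rose and 4 fell (median 0.08). Transcript length moved with this split: over 1048 genes with a mean transcript length under 1000 bases the median log2 fold change between the controls was −0.91, and over 4320 genes above 4000 bases it was 0.24. In shZfr against shControl1 these medians were −0.78 and 0.25. Rps14, at 597 bases, had the shortest transcript of the 8. The part of transcript length in these differences was not tested.

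**Figure D4:**
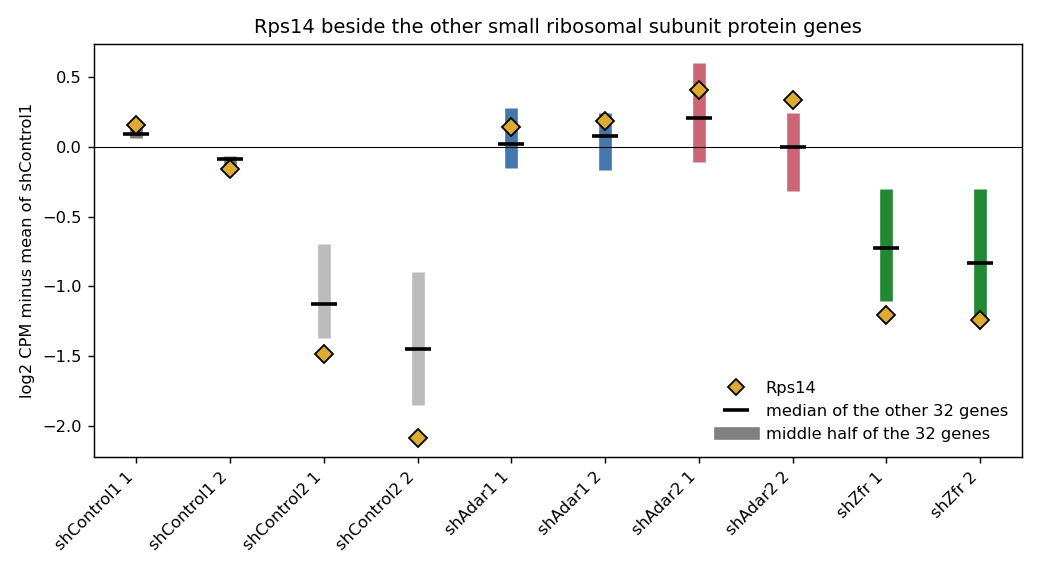
Log2 CPM in each sample minus the mean of the shControl1 samples (vertical axis) for Rps14 (diamonds) and for the other 32 small-subunit protein genes, as their median (black bars) and the range from the lower to the upper quartile of genes (coloured bars). Rps14 and the list are low in the shControl2 and shZfr samples, with Rps14 at −1.20 to −2.09, and near or above 0 elsewhere.

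Fmr1 encodes FMRP, a ribosome-associated repressor of translation whose loss causes fragile X syndrome in humans. It was highest in shControl2, at 227 and 251 CPM, and lowest in shAdar2, at 80.5 and 99.9 CPM. The samples of shControl1 (149 and 141 CPM) overlapped those of shAdar1 (148 and 157 CPM) and of shZfr (139.8 and 142 CPM). In shAdar2 Fmr1 fell to 62.0% of shControl1 (−0.69 ± 0.12, adjusted p = 0.00124) and to 37.6% of shControl2 (−1.41 ± 0.12, adjusted p = 1.54e-05). In shZfr it fell against shControl2 (−0.77 ± 0.12, adjusted p = 0.00121), also with the shZfr samples summed (adjusted p = 0.0176), but against shControl1 the value was −0.05 ± 0.11 (adjusted p = 0.768). Likewise shAdar1 was at 0.07 ± 0.11 against shControl1 and fell against shControl2 (−0.65 ± 0.11, adjusted p = 0.00284). Fmr1 was higher in shControl2 than in shControl1 by 0.72 ± 0.11 (adjusted p = 0.00101).

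Fxr1 encodes a relative of FMRP with the same kind of RNA-binding domains. It stood at 168 and 166 CPM in shZfr, 116 and 113 CPM in shControl1, 95.8 and 106 CPM in shControl2, 86.6 and 83.2 CPM in shAdar1, and 69.3 and 82.3 CPM in shAdar2. No group overlapped another. In shZfr Fxr1 rose to 165.8% of shControl2 (0.73 ± 0.11, adjusted p = 0.000975) and 145.5% of shControl1 (0.54 ± 0.10, adjusted p = 0.00246). The rise against shControl2 passed in all 12 alternatives run, with an adjusted p of 0.0123 when the shZfr samples were summed. In shAdar2 it fell to 65.8% of shControl1 (−0.60 ± 0.11, adjusted p = 0.00155) and 75.1% of shControl2 (−0.41 ± 0.11, adjusted p = 0.00726). In shAdar1 Fxr1 fell against shControl1 (−0.44 ± 0.11, adjusted p = 0.0227) but not against shControl2 (−0.25 ± 0.11, adjusted p = 0.0999), and the first call was lost without any 1 of its 4 samples (0.0579 to 0.123). Among the 3 members that passed in opposite directions in shAdar2 and shZfr against either control, Fxr1 was the one whose calls passed in every alternative run for both comparisons of the design.

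Fxr2, the remaining gene of this family, did not mirror Fxr1. It was at 105.5 and 90.5 CPM in shAdar2 and 91.9 and 92.2 CPM in shZfr, against 67.6 and 74.9 CPM in shControl1 and 55.7 and 52.2 CPM in shControl2. It rose in shAdar2 (0.46 ± 0.11, adjusted p = 0.00627) and in shZfr (0.77 ± 0.11, adjusted p = 0.000814). Of 9 genes for partners of FMRP, Fxr2 included, 2 rose and 3 fell in shAdar2 (median −0.20), with the helicase gene Mov10 at 1.37 ± 0.17 and Nufip2 at −0.93 ± 0.12. In shZfr 3 rose and 1 fell (median 0.31), the latter the stress granule gene G3bp2 (−0.73 ± 0.12), and in shAdar1 1 rose against shControl1, G3bp1 (0.36 ± 0.11), and 1 fell against shControl2, Nufip2 (−0.77 ± 0.12).

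Hnrnpa2b1, a binder of nascent transcripts and of neuronal transport signals, stood at 544 and 521 CPM in shZfr, 425 and 453 CPM in shControl2, 398 and 454 CPM in shAdar1, 334 and 344 CPM in shControl1, and 239 and 311 CPM in shAdar2. Only shControl2 and shAdar1 overlapped. Although its group means spanned 1.94-fold, none of the 3 knockdowns passed against its own control in edgeR over all samples: 0.33 ± 0.13 in shAdar1 (adjusted p = 0.119), −0.30 ± 0.13 in shAdar2 (adjusted p = 0.0841) and 0.28 ± 0.13 in shZfr (adjusted p = 0.138). Against the other control it fell in shAdar2 (−0.68 ± 0.13, adjusted p = 0.00172) and rose in shZfr (0.65 ± 0.13, adjusted p = 0.00314). The fall in shAdar2 against shControl1 passed without shAdar2 replicate 2 (−0.51, adjusted p = 0.00633) and with DESeq2 (−0.33, adjusted p = 0.0428), and the rise in shZfr against shControl2 passed in a fit of only the compared groups (0.21, adjusted p = 0.0211). The difference between the controls, 0.37 ± 0.13 (adjusted p = 0.0443), missed the threshold without any 1 of the 4 control samples (0.0726 to 0.163).

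Among its relatives, Hnrnpa3 rose in shAdar1 against shControl1 (0.57 ± 0.10, but −0.07 ± 0.10 against shControl2) and in shZfr (0.68 ± 0.10) and fell in shAdar2 (−0.40 ± 0.10). Hnrnpa1 fell in shAdar2 (−1.14 ± 0.16) and did not pass in shAdar1 (0.39 ± 0.15) or shZfr (−0.16 ± 0.15) against the design's control. Against shControl2 Hnrnpa1 rose in shAdar1 (0.53 ± 0.15, edgeR adjusted p = 0.0267). Of 22 other hnRNP genes, 6 rose and none fell in shAdar1 against shControl1 (median 0.20; 5 and 3 against shControl2, median 0.10), 2 rose and 10 fell in shAdar2 (median −0.22), and 8 rose and 3 fell in shZfr (median 0.22), where Hnrnpa0 was at 1.76 ± 0.11. Hnrnpa0 was also at −1.59 ± 0.11 between the controls. A further list of 20 genes for other reported ADAR partners gave 4 rises in shAdar1 against shControl1 (median 0.06) and 7 rises and 3 falls against shControl2 (median 0.15), 4 rises and 9 falls in shAdar2 (median −0.30) and 4 rises and 2 falls in shZfr (median 0.17). In that list Trove2 turned with the control, at 1.46 ± 0.19 in shAdar1 against shControl1 and −1.54 ± 0.19 against shControl2. Strbp, a double-stranded RNA-binding protein gene, fell in shAdar2 (−1.60 ± 0.13), and Ilf2, whose protein pairs with those of Strbp and Zfr, rose in shZfr (0.85 ± 0.12).

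Compared per length, on the deposited TPM scale, Rps14 was the most abundant member, with a mean over samples of 780.0 TPM (250.5 to 1229). Hnrnpa2b1 followed at 555.9 TPM, but had the higher mean of the pair in shControl2 (653 against 318 TPM) and in shZfr (760.3 against 444 TPM). Lower were Fxr1 (158.9 TPM), Dhx15 (151.8 TPM), Fmr1 (104.7 TPM), Srsf9 (73.7 TPM), Aimp2 (32.2 TPM) and Wwp2 (16.9 TPM). Adar had a mean of 68.8 TPM and Adarb1 of 36.8 TPM. In the control groups Wwp2 and Aimp2 were the members with less RNA per length than Adarb1. In shAdar2, where Adarb1 was the target of the hairpin, both had more (26.7 and 36.4 TPM against 22.5 TPM). Aimp2 was also slightly above Adarb1 in shAdar1 (43.0 against 42.4 TPM) and in shZfr (23.2 against 21.6 TPM), where Wwp2 was below it (17.2 and 9.4 TPM). The order of the 8 was the same on the deposited FPKM scale. Expected counts, printed to 2 decimals, were exactly whole in every library for all 8 members and for 18208 of the 19190 genes with a count in some library, so none of the 8 carried a fractional share of reads that match several genes.

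Over the 5 groups, 10 pairs were tested for each member. Wwp2, Dhx15, Rps14, Fmr1 and Fxr1 differed in 7 pairs, Aimp2 in 6, Hnrnpa2b1 in 5 and Srsf9 in 4, beside 7 for Adar and for Adarb1. In the comparisons given above, 16.2% to 60.5% of all genes tested were called. The number of pairs per gene was not counted over all genes, so the members' numbers cannot be set against it. For Aimp2 and Hnrnpa2b1 no group differed from its neighbour in the order of means, so their orders hold only between distant groups. The order for Fxr1, from low to high, was shAdar2, shAdar1, shControl2, shControl1 and shZfr, and only the step to shZfr passed. Dhx15 had the same order of groups, and its steps from shAdar2 to shAdar1 and from shControl1 to shZfr passed.

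By the correlation of log2 CPM over the 10 samples, the genes most like each member among 11111 genes were Rtn4rl2 and Sh3rf3 for Wwp2 (Pearson r of 0.991 and 0.988), Yme1l1 and Kbtbd2 for Dhx15 (0.984 and 0.983), Mcl1 and Ranbp2 for Fxr1 (0.988 and 0.983) and Ncoa1 and Rhoq for Fmr1 (0.985 and 0.983). They were Rps19 and Oaz1 for Rps14 (0.997 and 0.996), Chek1 and Kif15 for Hnrnpa2b1 (0.988 and 0.987), Med18 and Efhd2 for Srsf9 (0.981 and 0.975) and Cic and Pwp2 for Aimp2 (0.976 and 0.963). The samples fall into 5 groups, so these values describe like patterns over groups and carry no test.

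Markers of cell types and of the interferon response also differed between the groups. Summed neuron markers, such as Tubb3 and Map2, were 2891 to 3474 CPM in shAdar2 against 5611 to 6127 CPM in shControl1, with 5 of 10 lower and 1 higher. In shZfr they were 10214 to 10429.9 CPM against 7934 to 8666 CPM in shControl2, with 2 of 10 higher. Astrocyte markers summed to 2018 to 2451 CPM in shControl2, 736 to 777 CPM in shZfr and 639 to 955 CPM in shControl1. Of 8, 7 were higher in shControl2 than in shControl1, and 5 were lower and 1 higher in shZfr than in shControl2. Proliferating progenitor markers summed to 609.6 to 658.8 CPM in shZfr, 383.1 to 402.9 CPM in shControl2, 170.5 to 441.3 CPM in shAdar1, 122.1 to 139.6 CPM in shControl1 and 35.1 to 86.8 CPM in shAdar2. Of these 8 markers, none was called in shZfr against shControl2, and 7 were higher in shZfr than in shControl1. Between the controls 5 were higher in shControl2, and 2 were lower in shAdar2 than in shControl1. Oligodendrocyte lineage markers summed to 439.0 to 439.8 CPM in shControl2 and 76.4 to 119.9 CPM in shControl1, with 5 of 7 higher in shControl2. They ran from 141.9 to 407.5 CPM in shAdar1, 89.1 to 318.9 CPM in shAdar2 and 259.6 to 300.3 CPM in shZfr. Microglia markers summed to 2.51 to 4.82 CPM in shAdar2 and to at most 1.19 CPM elsewhere, with Tyrobp higher in shAdar2 than in shControl1 (adjusted p = 0.0204). Endothelial and mural markers summed to 13.5 to 21.3 CPM in shAdar2 and to at most 12.6 CPM elsewhere, with Col1a1 higher (adjusted p = 0.00957). The microglia genes Aif1, Cx3cr1, Tyrobp and Trem2 were at 0 in both shControl2 samples. Interferon-stimulated genes summed to 130.1 to 413 CPM in shAdar2 and to 14.6 to 41.3 CPM in all other samples, and all 11 tested rose in shAdar2 against shControl1. In these bulk samples a change in the share of a cell type and a change in RNA per cell cannot be told apart. The part of cell composition and of the interferon response in the members' differences was not tested.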

How the data were processed

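RNA sequencing after rRNA depletion covered 12 libraries of 10 samples. The authors deposited RSEM expected counts, TPM and FPKM per gene, and, per editing site, read counts and the edited fraction, per the file headers. The submitters' processing notes name RSEM 1.2.30, STAR 2.5.4b, Trim Galore 0.4.5, DESeq2 1.20.0, SAMtools 1.4 and the mm9 build, with no role or order. Here the 3 technical libraries of shAdar2 replicate 1 were summed, and expected counts were rounded. Genes were filtered with filterByExpr and scaled by TMM, and all 10 samples were fitted in 1 model with edgeR 4.0.16 (R 4.3.3, quasi-likelihood F test, Benjamini-Hochberg over 14785 genes, called at an adjusted p under 0.05). The scripts were tested on simulated data. The members and gene lists were chosen with earlier results of these data known. Besides the members, the genes named are Adar, Adarb1, Zfr, relatives of members, the 2 genes most like each member among those with a mean of at least 5 CPM (log2 CPM with a prior count of 2), and up to 2 called genes of lowest p per list and comparison. Alternatives were DESeq2 1.42.0, edgeR with the size factors of DESeq2, a fit without the filter, Rn45s left out, the replicate block, only the compared groups, the other control, each sample left out and each technical library alone. The comparison of shZfr with shAdar2 and the summed shZfr samples were added after the data were seen. Editing levels are edited reads over all reads at a site.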

Additional observations from a re-analysis of the deposited data

How the results depend on the processing

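Over the members and the comparisons, 441 values under an alternative kept their side of the threshold and, apart from 11 values with no call, their direction, 41 lost the call, 12 gained it and 2 turned direction with a call. With the other control hairpin, Fmr1 in shAdar1 was at −0.65, Rps14 in shZfr at −1.23, and, outside the members, Zfr in shAdar1 at −0.58; the members called were then 4 in shAdar1 and 8 in shAdar2. The 2 members called in shAdar1 became 1, Fxr1, with DESeq2, with its size factors, without the filter on low counts, with only the compared groups, with the replicate block and with crossed replicate numbers. Of all genes, 11.9% (only the compared groups) to 19.5% (DESeq2) were called in these runs, beside 16.2% in the main fit. Leaving out 1 sample gave 0 to 0 members in shAdar1 (5.13% to 10.2% of all genes called), 4 to 5 in shAdar2 (32.4% to 52.0%), 2 to 4 in shZfr against shControl2 (12.1% to 16.9%), 2 to 2 between the controls (23.4% to 33.8%) and 6 to 7 in shZfr against shAdar2. With the shZfr samples summed, 3 members were called against shControl2 (13.1% of all genes). The cause of these changes was not tested, apart from the smaller number of samples where some were left out or summed. The correlation of replicate differences was −0.12 in shAdar1 with shControl1, −0.10 in shAdar2 with shControl1 and 0.08 in shZfr with shControl2. With 1 difference per group, these values cannot show whether a replicate number marks a shared litter, batch or day, and the labels do not say. The replicate block gave 2342 genes called against 2400 in shAdar1 and 4564 against 4542 in shZfr, and the crossed numbers gave 1960 in shAdar1.

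Counts over all genes moved by more than 1.5 times as follows. In shAdar1 2400 became 4909 with the other control and 784 to 1557 without 1 sample, lowest without shControl1 replicate 2. In shAdar2 6856 became 4047 with only the compared groups. In shZfr 4542 became 7909 with only the compared groups, 6824 with the other control, 2009 with the shZfr samples summed and 1866 to 2604 without 1 sample. Between the controls the count moved by more than 1.5 times only without shControl2 replicate 2. Mean editing moved with the read minimum: with at least 10 reads it was 3.98% and 4.07% in shControl1, 2.74% and 2.59% in shControl2, 2.08% and 1.75% in shAdar1, 2.39% and 2.62% in shAdar2 and 1.70% and 1.69% in shZfr. Of the 2 genes most like each member, 1 was also among the top by Spearman's correlation for Rps14 (Rps19) and 0 for each of the other members, with ties counted. Aimp2 differed in 3 of 10 pairs of groups with DESeq2.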
